A study of Mus musculus with 8 samples.

Results

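Described here were 9 genes tied to mitochondrial fatty acid oxidation that respond to peroxisome proliferator-activated receptors (PPARs). The genes were Cpt1a, Cpt2, Acadvl, Acadm, Hadha, Hadhb, Eci2, Pdk4 and Ucp3. All are called oxidation genes below, although Pdk4 encodes a kinase and Ucp3 a mitochondrial carrier, neither a step of the oxidation itself. They were picked by name from the 31053 Ensembl genes of the count table, and each matched 1 identifier. Bulk RNA-seq had been performed on brown adipose tissue (BAT) of 4 WT mice and 4 Ucp1Δ/Δ mice, which the sample labels call ATGLKO. All mice were of the strain C57BL6/J and, by the labels, 10 weeks old. A figure legend of the study gives a younger age, and its methods name fasting before tissue harvest. Ucp1Δ/Δ mice carry floxed alleles of Pnpla2 and a Cre transgene driven by Ucp1, so Pnpla2, the gene of adipose triglyceride lipase (ATGL), is removed only in cells that have switched on Ucp1, and other cells of the tissue keep it. Whether the WT mice were littermates or carried floxed alleles is not given in the sources used here. The comparison asks what the loss of this lipase does to the oxidation genes of BAT.

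ATGL takes the first fatty acid off stored triglyceride, and fatty acids freed in this way serve both as fuel for the mitochondria and as ligands of PPARs. A PPAR bound to its partner RXR sits at a DNA element made of repeated AGGTCA half-sites and raises transcription of genes that import and oxidize fatty acids. In brown adipocytes this oxidation feeds the heat production of UCP1. CPT1 and CPT2 pass long-chain acyl groups into the mitochondrion, acyl-CoA dehydrogenases open each round of β-oxidation, the trifunctional protein of Hadha and Hadhb completes it for long chains, and isomerases such as ECI2 prepare unsaturated chains.

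The promoters of the 4 genes called different between genotypes (adjusted p under 0.05) are shown because these genes moved in opposite directions. Each is a RefSeq window on GRCm38.p6, the assembly behind mm10, from 250 bases before to 50 bases after the transcript start, and 9 of the 9 genes had one. For Cpt1a and Eci2 the RefSeq start lies inside the longer gene span of the annotation given further on. Cpt1a lies on the plus strand of chromosome 19 (window chr19:3323051-3323350), Ucp3 on the plus strand of chromosome 7 (chr7:100472741-100473040), Hadhb on the plus strand of chromosome 5 (chr5:30155003-30155302) and Eci2 on the minus strand of chromosome 13 (chr13:34994095-34994394). In Cpt1a and Ucp3 the capitals mark the half-site AGGTCA or its reverse complement TGACCT. In Hadhb they mark the 85 bases between the annotated gene starts of Hadha and Hadhb, which are transcribed away from each other. Eci2 held no half-site in its window and has no capitals.
Cpt1a: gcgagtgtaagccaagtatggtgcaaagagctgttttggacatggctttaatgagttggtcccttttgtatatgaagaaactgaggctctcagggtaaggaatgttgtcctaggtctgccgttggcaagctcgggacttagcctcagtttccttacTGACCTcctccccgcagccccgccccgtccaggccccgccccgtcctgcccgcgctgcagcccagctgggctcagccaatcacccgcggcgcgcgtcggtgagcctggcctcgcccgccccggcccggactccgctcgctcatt
Ucp3: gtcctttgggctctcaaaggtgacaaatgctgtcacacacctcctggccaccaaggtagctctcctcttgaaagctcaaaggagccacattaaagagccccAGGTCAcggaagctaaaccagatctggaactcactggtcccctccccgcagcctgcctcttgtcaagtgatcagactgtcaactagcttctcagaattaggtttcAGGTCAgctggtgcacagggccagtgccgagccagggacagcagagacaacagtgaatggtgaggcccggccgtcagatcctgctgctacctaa
Hadhb: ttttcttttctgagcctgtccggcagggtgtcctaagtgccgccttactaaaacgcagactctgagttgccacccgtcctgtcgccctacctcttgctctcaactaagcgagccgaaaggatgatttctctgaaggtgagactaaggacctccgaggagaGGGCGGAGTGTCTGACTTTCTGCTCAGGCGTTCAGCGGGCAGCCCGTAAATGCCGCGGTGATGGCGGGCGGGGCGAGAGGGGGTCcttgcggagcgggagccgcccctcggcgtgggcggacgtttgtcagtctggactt
Eci2: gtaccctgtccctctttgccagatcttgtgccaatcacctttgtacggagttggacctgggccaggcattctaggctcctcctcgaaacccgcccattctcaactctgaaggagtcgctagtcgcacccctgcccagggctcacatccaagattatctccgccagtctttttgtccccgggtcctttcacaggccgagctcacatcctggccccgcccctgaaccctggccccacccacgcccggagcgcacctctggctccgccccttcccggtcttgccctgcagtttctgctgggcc

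On either strand, the half-site AGGTCA occurred in 4 of the 9 windows (Acadm, Acadvl, Cpt1a and Ucp3) and in 16.3% of the 32851 promoter windows of the genome. A direct repeat of AGGTCA with 1 base of any kind between the copies occurred in 0 of the 9 windows and in 0.0396% of all windows. The same repeat with AGGNCA in place of AGGTCA, which includes the former, occurred in 0 of the 9 and in 0.381%. Sequence outside the windows and repeats with other bases were not searched, so PPAR elements of these genes could have been missed. The half-site was present in Cpt1a, which was higher in Ucp1Δ/Δ mice, in Ucp3, which was lower, and in Acadm and Acadvl, which were not called. The windows of Hadha and Hadhb share 228 bases.

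Pnpla2 had between 2701 and 3152 CPM (counts scaled to a common library size) in WT mice and between 403 and 531 CPM in Ucp1Δ/Δ mice. Total counts ran from 2017697 to 3115956 in WT and from 2240612 to 2941799 in Ucp1Δ/Δ mice, and mitochondrially encoded genes took 38.4% to 45.6% and 39.1% to 42.6% of them. At these depths 3 counts equal 0.933 to 1.53 CPM, a floor that covers counting error only. The cell type given in the labels is the stromal vascular fraction, a digest without mature adipocytes, but all 16 brown adipocyte markers had counts in every mouse, with summed levels of 16355 to 28214 CPM in WT and 12654 to 18721 CPM in Ucp1Δ/Δ mice.

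Of the 9 oxidation genes, 3 were lower in BAT of Ucp1Δ/Δ mice (Eci2, Ucp3 and Hadhb) and 1 was higher (Cpt1a), judged by the quasi-likelihood test of edgeR at an adjusted p under 0.05 (Benjamini-Hochberg over all genes tested). Among the 8930 genes tested, 7.63% were lower and 13.3% higher, 21.0% in all. The other 5 oxidation genes, Cpt2, Acadvl, Acadm, Hadha and Pdk4, were not called. All 9 passed the filter on low counts. The median log2 fold change (log2FC, Ucp1Δ/Δ over WT) over the 9 genes was -0.52, with 7 below 0 and 2 above, against a median of -0.01 over all tested genes. In 4 genes (Acadvl, Eci2, Hadha and Hadhb) each Ucp1Δ/Δ mouse lay below each WT mouse, an arrangement found in 9.37% of all tested genes, and in Cpt1a each lay above, as in 14.4%. The number of lower genes moved from 1 without Ucp1Δ/Δ replicate 2 to 6 without WT replicate 4, and was 6 with DESeq2's Wald test. The number lower among all tested genes moved too, from 681 of 8930 in the main test. It was 400 of 8972 without Ucp1Δ/Δ replicate 2, 851 of 9264 without WT replicate 4 and 785 of 12312 with the Wald test. In bulk tissue, fewer cells of a type and less RNA per cell cannot be told apart.

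**Figure D1:**
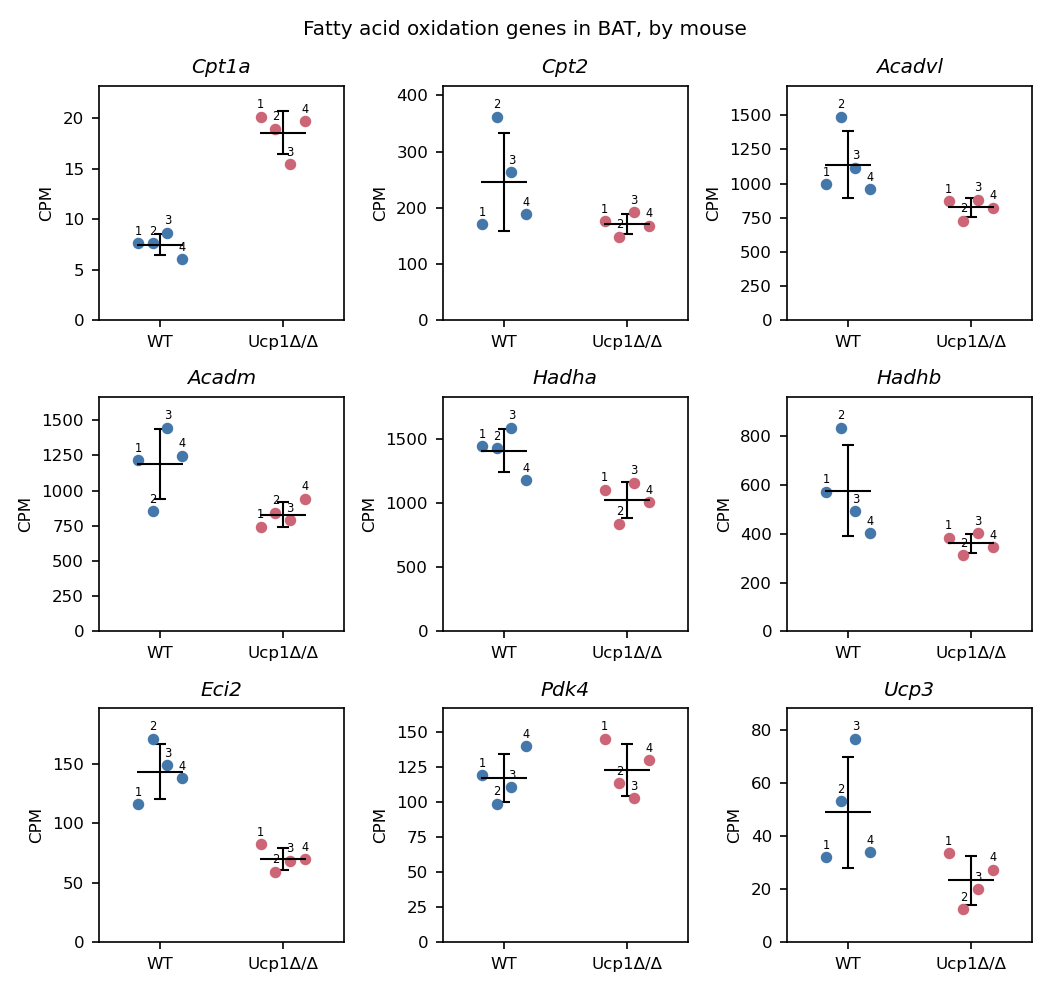
Expression level (CPM, linear axes from 0) of the 9 oxidation genes in BAT of 4 WT and 4 Ucp1Δ/Δ mice; points are mice with their replicate number, black bars the mean ± SD. In Cpt1a the Ucp1Δ/Δ mice lie between 15.5 and 20.2 CPM, above all WT mice, and in Eci2 between 59.4 and 82.4 CPM, below all WT mice.

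Cpt1a (ENSMUSG00000024900) encodes the carnitine palmitoyltransferase of the outer mitochondrial membrane that is typical of liver, and catalyses the step at which malonyl-CoA controls entry of fatty acids. It is a protein-coding gene of chromosome 19 (3322334 to 3385733, plus strand, mm10, as are all gene positions given here). Its level in WT replicates 1 to 4 was 7.65, 7.62, 8.68 and 6.08 CPM. Ucp1Δ/Δ replicates 1 to 4 had 20.2, 19.0, 15.5 and 19.7 CPM. The groups did not overlap, and the lowest Ucp1Δ/Δ mouse stood above the highest WT mouse. Its mean went up from 7.51 ± 1.07 CPM (SD, n = 4) to 18.6 ± 2.14 CPM (SD, 4 mice), a log2FC of 1.29 (standard error, SE, 0.22, adjusted p = 0.000653 by edgeR). The raw counts behind it were small, 12 to 26 in WT and 37 to 61 in Ucp1Δ/Δ mice. Macrophage markers rose along with it: 12 of the 12 tested markers of 14 were higher, and their summed level was 116 to 183 CPM in WT and 1104 to 1798 CPM in Ucp1Δ/Δ mice. Of all tested genes 13.3% were higher. Stromal markers were higher in 7 of 8, with summed levels of 373 to 576 and 1152 to 2299 CPM. Their part in the level of Cpt1a was not tested.

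Cpt2 (ENSMUSG00000028607; chromosome 4, 107903981 to 107923610, minus strand) encodes the inner-membrane enzyme that turns acylcarnitines back into acyl-CoA. Its level was 171, 362, 263 and 188 CPM in WT replicates 1 to 4. In the 4 Ucp1Δ/Δ mice the values were 177, 149, 192 and 168 CPM. WT replicates 2 and 3 were high, whereas WT replicates 1 and 4 fell within the range of the Ucp1Δ/Δ mice. The log2FC was -0.52 (95% interval -1.06 to 0.01, adjusted p = 0.108 by edgeR). It was -0.67 without WT replicate 1 (adjusted p = 0.0476), -0.64 without WT replicate 4 (adjusted p = 0.0458) and -0.29 without WT replicate 2 (adjusted p = 0.28). The ratio of Cpt1a to Cpt2, in which library scaling cancels apart from the prior count, was higher in each Ucp1Δ/Δ mouse, by 1.69 on the log2 scale (exact permutation, two-sided, p = 0.0286, the smallest that 4 mice against 4 allow; 0.0857 after adjustment over the 6 ratios tested). Cpt1b, the muscle-type isoform that is the usual one of brown fat, could not be set beside Cpt1a. It had 2 counts over all mice, and Gm44502, whose exons cover 2744 bases of Cpt1b on the same strand, had 0 in every mouse. Whether reads that match both genes were counted for neither was not tested.

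Acadvl and Acadm encode the dehydrogenases that open β-oxidation of very-long-chain and medium-chain acyl-CoA. Acadvl (ENSMUSG00000018574; chromosome 11, 70010183 to 70015411, minus strand) had 995, 1490.1, 1116 and 957 CPM in WT replicates 1 to 4. The Ucp1Δ/Δ mice, in the same order, had 872, 728, 882 and 825 CPM. Each Ucp1Δ/Δ mouse was below each WT mouse, yet the log2FC of -0.46 was not called (95% interval -0.89 to -0.03, adjusted p = 0.0747 by edgeR). Acadm (ENSMUSG00000062908; chromosome 3, 153922357 to 153944632, minus strand) had 1217, 853, 1448 and 1248 CPM in WT replicates 1 to 4. Ucp1Δ/Δ replicates 1 to 4 had 744, 844, 789 and 944 CPM. Here only WT replicate 2 reached into the Ucp1Δ/Δ range, the same mouse that was highest for Acadvl. The log2FC of Acadm was -0.52 (95% interval -0.96 to -0.08, adjusted p = 0.0526), and -0.66 without WT replicate 2 (adjusted p = 0.00684). DESeq2's Wald test called both genes, with adjusted p of 0.0196 for Acadvl and 0.013 for Acadm, and without WT replicate 4 Acadvl was called at an adjusted p of 0.0326. Acadm alone was called by limma voom (adjusted p = 0.0126) and by limma on the deposited log2 values (0.0485). In edgeR it alone was called with DESeq2's size factors as scaling (0.0447) and under a minimum of 1 count in any mouse (0.0452). Neither gene was called with total counts only, under a minimum of 10 counts per mouse or with the replicate block. The exons of Acadvl share 1151 bases with Dvl2 on the other strand, which had 15 to 39 counts a mouse. The ratio of Acadvl to Acadm differed by 0.06 on the log2 scale (exact permutation, two-sided, p = 0.83).

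Hadha and Hadhb encode the α and β subunits of the mitochondrial trifunctional protein, which hydrates, oxidizes and cleaves long-chain intermediates. Hadha (ENSMUSG00000025745; chromosome 5, 30118304 to 30155162, minus strand) had 1440.5, 1426, 1588 and 1178 CPM in WT replicates 1 to 4. In the 4 Ucp1Δ/Δ mice the values were 1105, 839, 1159 and 1006 CPM. Hadhb (ENSMUSG00000059447; chromosome 5, 30155248 to 30184593, plus strand) had 574, 836, 493 and 404 CPM in the WT mice (replicates 1 to 4) and 385, 312, 402 and 345 CPM in Ucp1Δ/Δ replicates 1 to 4. In both genes all Ucp1Δ/Δ mice lay below all WT mice, in Hadhb by the small gap between Ucp1Δ/Δ replicate 3 and WT replicate 4. Hadhb was lower, with a log2FC of -0.68 (SE 0.21, adjusted p = 0.0305 by edgeR), and Hadha had a log2FC of -0.46 (95% interval -0.87 to -0.05, adjusted p = 0.0671). The ratio of Hadha to Hadhb was 1.33 ± 0.40 (SD, n = 4) in WT and 1.5 ± 0.053 (SD, n = 4) in Ucp1Δ/Δ mice on the log2 scale, with overlap of the groups (exact permutation, two-sided, p = 0.571). The ratio was lowest in WT replicate 2, at 0.77, and without that mouse the difference between genotypes was -0.02 in place of 0.17. The call of Hadhb was lost without WT replicate 1 (adjusted p = 0.0572), WT replicate 2 (0.0668), Ucp1Δ/Δ replicate 1 (0.0518), Ucp1Δ/Δ replicate 2 (0.0945) or Ucp1Δ/Δ replicate 4 (0.0741), with the replicate number as a block (0.0522) and with total counts as the only scaling (0.0713), while its log2FC stayed between -0.82 and -0.45. Hadha was called by DESeq2's Wald test (adjusted p = 0.0118), by limma voom (0.0277), by limma on the deposited log2 values (0.0478) and without WT replicate 4 (0.0256).

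Eci2 (ENSMUSG00000021417; chromosome 13, 34977748 to 35027096, minus strand) encodes an enoyl-CoA isomerase found in mitochondria and peroxisomes, which moves a double bond so that unsaturated chains can enter β-oxidation. Its level was 116, 171, 149 and 138 CPM in WT replicates 1 to 4. The Ucp1Δ/Δ mice, in the same order, had 82.4, 59.4, 68.5 and 69.96 CPM. The groups did not overlap, and the Ucp1Δ/Δ mean was 48.9% of the WT mean. The log2FC was -1.03 (SE 0.18, adjusted p = 0.000578 by edgeR), and the call held in each alternative run. Eci1, the mainly mitochondrial isomerase, was lower too, with a log2FC of -0.63 (SE 0.20, adjusted p = 0.0352). Its call was lost without WT replicate 1, 2 or 3 (adjusted p = 0.0541, 0.0639 and 0.104) or Ucp1Δ/Δ replicate 2 or 4 (0.119 and 0.0854), with total counts only (0.0806), under a minimum of 10 counts per mouse (0.055) and with the muscle-rich mice removed (0.179). The ratio of Eci2 to Eci1 was lower by 0.40 on the log2 scale with overlap between genotypes (exact permutation, two-sided, p = 0.0571; 0.114 adjusted over 6 ratios). Eci3, a paralogue next to Eci2 on chromosome 13 (34946614 to 34963810), was too low to be tested. It had 11, 9, 9 and 13 counts in the WT mice (replicates 1 to 4) against 1, 2, 0 and 1 in the Ucp1Δ/Δ mice, without overlap. How reads that match both paralogues were counted was not tested.

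Pdk4 (ENSMUSG00000019577; chromosome 6, 5483351 to 5496309, minus strand) encodes the kinase that inhibits pyruvate dehydrogenase and so spares glucose when fatty acids are burned. Its level was 119, 99.0, 111 and 139.8 CPM in WT replicates 1 to 4. Ucp1Δ/Δ replicates 1 to 4 had 145, 114, 103 and 130.1 CPM. The mice of both genotypes were intermixed, and the log2FC was 0.07 (95% interval -0.36 to 0.50, adjusted p = 0.822 by edgeR). The interval leaves out a change as large as that of Eci2, and the sign turned without WT replicate 2 or Ucp1Δ/Δ replicate 1 (-0.01 in each). Of the other kinases, Pdk1 was lower, from a WT mean of 62.5 ± 13.5 CPM (SD, n = 4) to 28.0 ± 5.79 CPM (SD, 4 mice) and without overlap, a log2FC of -1.17 (adjusted p = 0.00069). Pdk2 had a log2FC of -0.12 (adjusted p = 0.69), which turned to 0.01 with total counts only and to 0.02 without Ucp1Δ/Δ replicate 2, and Pdk3 had 2 to 12 counts a mouse and was not tested. Dlat, a subunit gene of the pyruvate dehydrogenase complex, was lower by a log2FC of -0.73 (adjusted p = 0.00557), as was the phosphatase gene Pdp2, which reverses the action of the kinases (-0.75, adjusted p = 0.0102; 0.0505 without Ucp1Δ/Δ replicate 2). With the most muscle-rich mouse of each genotype removed, both calls were lost (adjusted p = 0.0765 for Dlat and 0.107 for Pdp2). The ratio of Pdk4 to Pdk2 differed by 0.21 on the log2 scale (exact permutation, two-sided, p = 0.371).

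Ucp3 (ENSMUSG00000032942; chromosome 7, 100472990 to 100486432, plus strand) encodes a mitochondrial carrier of muscle and BAT related to UCP1. Its level was 32.1, 53.3, 76.8 and 33.9 CPM in WT replicates 1 to 4. In the 4 Ucp1Δ/Δ mice the values were 33.6, 12.4, 20.1 and 27.5 CPM. WT replicates 2 and 3 stood high, and Ucp1Δ/Δ replicate 1 lay within the WT range. Ucp3 was lower, with a log2FC of -1.09 (SE 0.31, adjusted p = 0.0209 by edgeR). The call was lost without WT replicate 3 (-0.79, adjusted p = 0.0948), Ucp1Δ/Δ replicate 2 (-0.86, adjusted p = 0.0802) or Ucp1Δ/Δ replicate 3 (-1.01, adjusted p = 0.06). Ucp1 itself had a log2FC of -0.34 (adjusted p = 0.481), which was -0.08 without WT replicate 2 and -0.58 without WT replicate 4. The ratio of Ucp3 to Ucp1 was lower in each Ucp1Δ/Δ mouse, by 0.80 on the log2 scale (exact permutation, two-sided, p = 0.0286; 0.0857 adjusted over 6 ratios). Ucp2, the paralogue known from macrophages and other immune cells, was higher, from a WT mean of 24.7 ± 4.76 CPM (SD, n = 4) to 133 ± 28.9 CPM (SD, 4 mice), a log2FC of 2.43 (adjusted p = 1.48e-06).

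**Figure D2:**
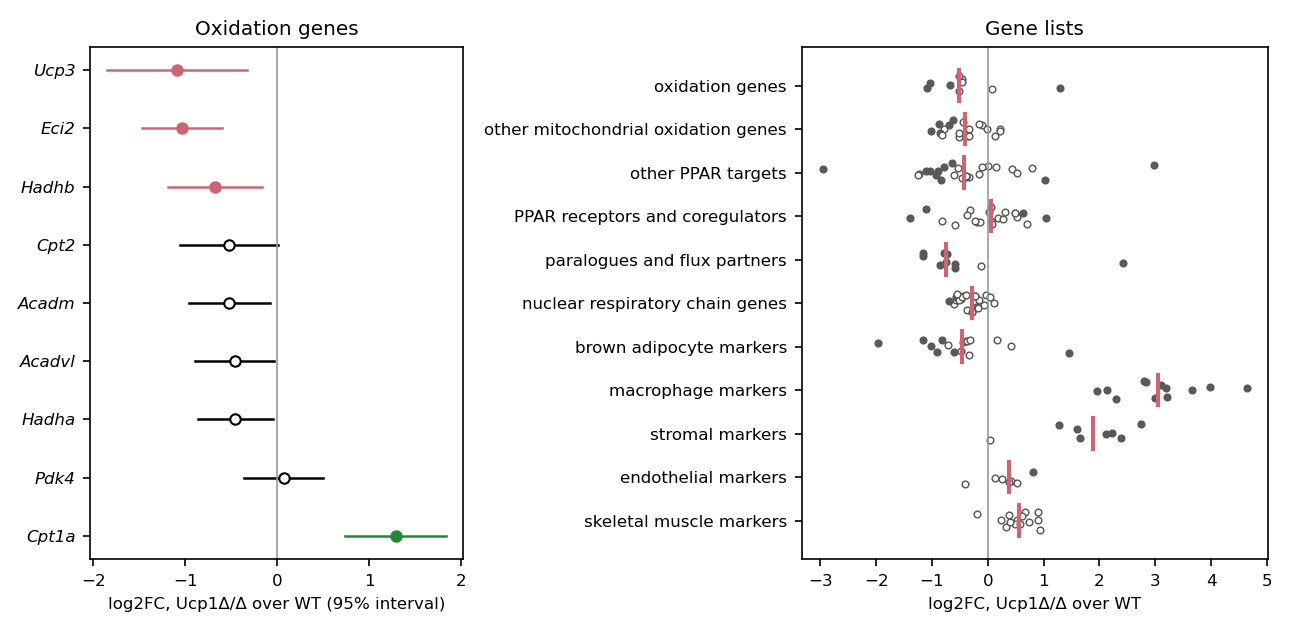
Left, log2FC of the 9 oxidation genes (Ucp1Δ/Δ over WT) with 95% intervals; filled symbols were called at an adjusted p under 0.05 and open ones were not. Right, log2FC of every tested gene of 11 lists with the list median as a red bar; the median of the oxidation genes is -0.52, beside -0.46 for brown adipocyte markers and 3.05 for macrophage markers.

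Ucp3 and Pdk4 are also genes of skeletal muscle, and the muscle content of the samples varied from mouse to mouse. The summed level of 16 muscle markers was 2314, 266, 125 and 1089 CPM in the WT mice (replicates 1 to 4) and 573, 3086, 168 and 1482 CPM in Ucp1Δ/Δ replicates 1 to 4. Of the 14 tested, edgeR called 0, with 0 at an unadjusted p under 0.05, and DESeq2's Wald test and both limma fits called 0. Ucp3 was lowest in Ucp1Δ/Δ replicate 2, the mouse with the most muscle RNA, and highest in WT replicate 3, the mouse with the least. Among WT mice, Pdk4 was 119 and 139.8 CPM in the muscle-rich replicates 1 and 4 and 99.0 and 111 CPM in the muscle-poor replicates 2 and 3. Among Ucp1Δ/Δ mice it was 114 and 130.1 CPM in the muscle-rich replicates 2 and 4 and 145 and 103 CPM in replicates 1 and 3. The part of muscle RNA in the levels of Ucp3 and Pdk4 was not tested. With the mouse richest in muscle markers removed from each genotype, a choice made after seeing the data, the log2FC of Ucp3 was -1.01 (adjusted p = 0.0511), that of Hadhb -0.59 (adjusted p = 0.168), that of Pdk4 0.13, that of Eci2 -1.03 (adjusted p = 0.00527) and that of Cpt1a 1.30 (adjusted p = 0.00892), and 1 oxidation gene was lower.

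**Figure D3:**
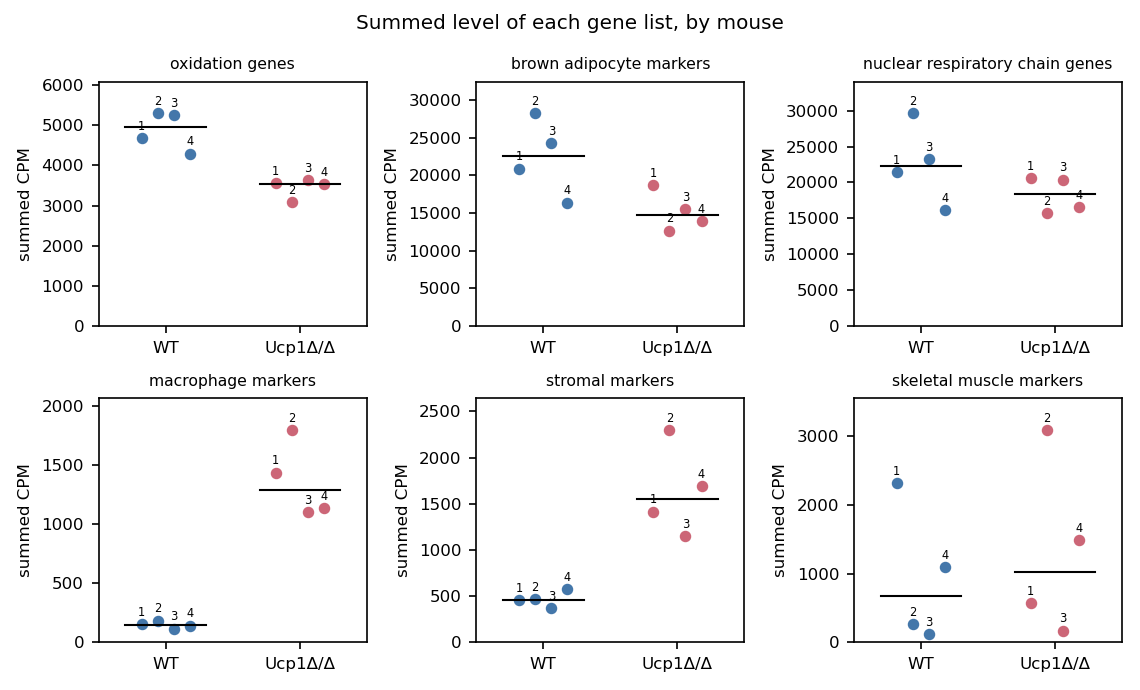
Summed level (CPM, linear axes from 0) of 6 gene lists in each mouse; points are mice with replicate numbers and bars the group medians. The oxidation genes sum to 4294 to 5298 CPM in WT and 3077 to 3631 CPM in Ucp1Δ/Δ mice, while muscle markers range from 125 to 3086 CPM across both genotypes.

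Mice of one genotype also differed among themselves in these genes. Each level was centred on the mean of its genotype, and the 36 pairs of oxidation genes were compared over the 8 mice by Pearson's r as a description, since all genes of a mouse share its library and depth. The median r was 0.25, and 27 pairs were above 0. Cpt2 and Acadvl moved most alike (r = 0.95), followed by Acadvl with Hadhb (r = 0.89) and Cpt2 with Eci2 (r = 0.81). Acadm went the other way, with r of -0.73 to Acadvl and -0.80 to Hadhb, and Pdk4 had r of -0.57 to Hadhb and to Cpt2. The subunit genes Hadha and Hadhb had an r of 0.52. In WT replicate 2 Cpt2, Acadvl, Hadhb and Eci2 were at their highest and Acadm and Pdk4 at their lowest among WT mice. The mean log2 CPM over the 9 genes was 7.69, 7.99, 7.98 and 7.64 in the WT mice (replicates 1 to 4) against 7.62, 7.25, 7.45 and 7.53 in the Ucp1Δ/Δ mice, so that the groups stood apart by a margin smaller than the range within either. For a search outside the list, each centred level was divided by its gene's SD over the 8 mice and averaged over the 9 genes. The tested gene most like this scaled mean was Gpat3, an acyltransferase gene of triglyceride synthesis (r = 0.98, 8 mice). It was followed by Hebp2 (r = 0.97), Pop7 (r = 0.96), Ubxn8 (r = 0.96) and Bscl2 (r = 0.96). Bscl2 encodes the lipid droplet protein seipin. These genes were picked as the highest r among all tested genes over 8 mice, where high values can arise without a relation. Hebp2 and Bscl2 were lower in Ucp1Δ/Δ mice (adjusted p = 0.01 and 0.0077 by edgeR), and Gpat3, Pop7 and Ubxn8 were not called.

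**Figure D4:**
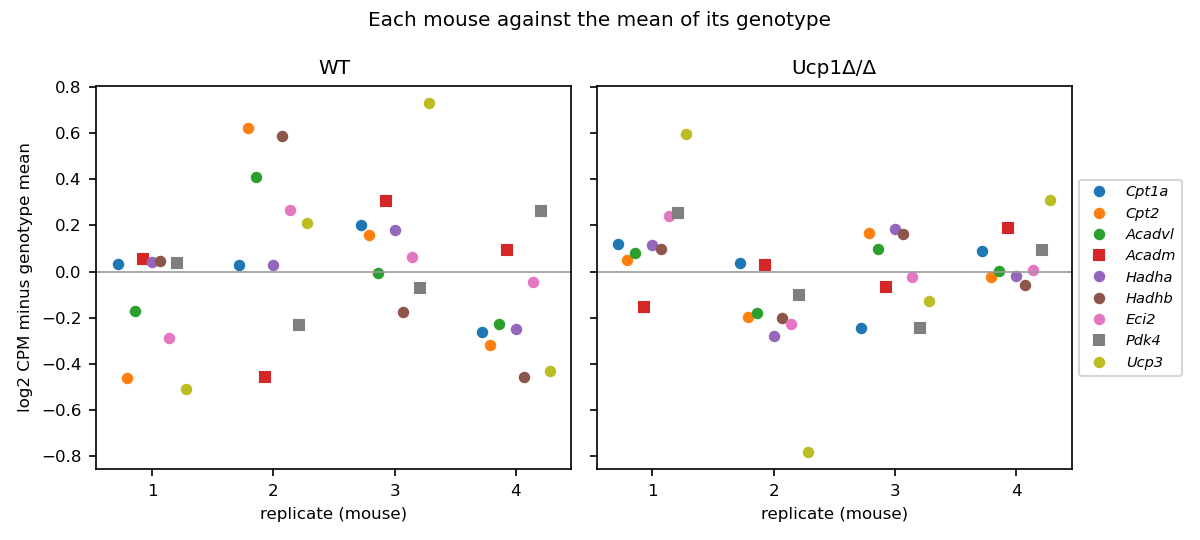
Log2 CPM of each oxidation gene minus the mean of its genotype, by replicate, in WT (left) and Ucp1Δ/Δ mice (right); squares are Acadm and Pdk4, circles the other genes. In WT replicate 2, Cpt2, Acadvl and Hadhb lie above 0 and Acadm and Pdk4 below it.

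The rest of the mitochondrial oxidation pathway was described with 22 further genes. Of the 20 tested, 5 were lower and 0 higher by the edgeR test, and the median log2FC was -0.41. Among all tested genes 7.63% were lower and 13.3% higher by this test. At an unadjusted p under 0.05, 10 were lower and 0 higher. The share of all tested genes under that unadjusted threshold is not given here, so the 10 has no background to be read against. DESeq2's Wald test and both limma fits also called 0 higher. Slc25a20, the carrier that exchanges acylcarnitine for carnitine between CPT1 and CPT2, fell from a WT mean of 276 ± 45.7 CPM (SD, n = 4) to 137 ± 20.8 CPM (SD, 4 mice) without overlap, a log2FC of -1.01 (adjusted p = 0.000739 by edgeR). Crat, the carnitine acetyltransferase gene, had a log2FC of -0.88 (adjusted p = 0.0153), a call lost without Ucp1Δ/Δ replicate 2 (0.0597) or replicate 4 (0.0504) and with the muscle-rich mice removed (0.0781). Acsl1, which activates fatty acids, had one of -0.85 (adjusted p = 0.00601), and Hsd17b10 one of -0.70 (adjusted p = 0.0208), a call lost without Ucp1Δ/Δ replicate 2, 3 or 4 (0.0738, 0.0526 and 0.0507), with total counts only (0.0512) and with the muscle-rich mice removed (0.15). The number of lower genes in this list was 2 without Ucp1Δ/Δ replicate 2 or replicate 4 and 9 without WT replicate 4. In these fits 400 of 8972, 471 of 9171 and 851 of 9264 genes were lower among all tested. Acaca, which makes malonyl-CoA, the inhibitor of CPT1, was lower by a log2FC of -1.15 (adjusted p = 0.000217). The 13 paralogues and flux partners, to which Acaca, the Pdk genes and the pyruvate dehydrogenase genes belong, held 8 lower and 1 higher among 10 tested. Without Ucp1Δ/Δ replicate 2 they held 3 lower, where 400 of all 8972 tested genes were lower.

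Other PPAR targets were described with 32 genes. Of these, 26 were tested, 9 were lower and 2 higher by the edgeR test, and the median log2FC was -0.42. The shares among all tested genes were 7.63% lower and 13.3% higher. Decr2, the peroxisomal dienoyl-CoA reductase, had a log2FC of -0.92 (adjusted p = 0.00197 by edgeR), and Slc27a1, a fatty acid transporter, one of -1.04 (adjusted p = 0.00221). Acot1, a thioesterase gene of a family with similar sequences, had one of -2.96 (adjusted p = 0.000166). The higher genes were Vnn1, which encodes the pantetheinase vanin-1 (log2FC of 2.97, adjusted p = 5.04e-05), and Fabp3, a fatty acid binding protein of muscle and brown fat (1.03, adjusted p = 0.00968). Angptl4, a secreted inhibitor of lipoprotein lipase and a PPAR target in many tissues, had a log2FC of 0.44 (adjusted p = 0.114), and was called without WT replicate 2 (0.62, adjusted p = 0.0108), with total counts only (adjusted p = 0.0316) and by limma voom (0.0215). The hormone gene Fgf21 had 1 count over all mice and was not tested.

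Among the receptors themselves, Ppara was lower, with 232, 132, 237 and 209 CPM in the WT mice (replicates 1 to 4) and 63.3, 78.1, 142 and 96.1 CPM in Ucp1Δ/Δ replicates 1 to 4. Ucp1Δ/Δ replicate 3 and WT replicate 2 overlapped. The log2FC was -1.10 (SE 0.25, adjusted p = 0.00476 by edgeR), and -0.94 (adjusted p = 0.0645) with the muscle-rich mice removed. Pparg, the receptor of adipocyte differentiation, had a log2FC of -0.33 (adjusted p = 0.219), Ppard one of 0.50 (adjusted p = 0.182) and the partner Rxra one of 0.06 (adjusted p = 0.843). Of 22 tested receptors and coregulators 2 were lower and 2 higher, with a median log2FC of 0.06. Among all tested genes 7.63% were lower and 13.3% higher, so these counts do not set the list apart. The other lower gene was Esrra, the estrogen-related receptor of mitochondrial genes (-1.38, adjusted p = 0.00611). The coactivator Ncoa3 was higher (1.05, adjusted p = 0.0103). Ppargc1a, a coactivator of PPARs in brown fat, had a log2FC of 0.27 (adjusted p = 0.407).

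Of 16 brown adipocyte markers 6 were lower and 1 higher by edgeR, with a median log2FC of -0.46. Of 23 nuclear genes of the respiratory chain 2 were lower and 0 higher by edgeR, with a median of -0.29. Among all tested genes 7.63% were lower and 13.3% higher, so the count of lower respiratory chain genes was close to that share. At an unadjusted p under 0.05, 8 respiratory chain genes were lower and 0 higher, again without a share of all tested genes to read this against. DESeq2's Wald test called 7 lower and 0 higher, where 785 of all 12312 genes were lower and 1290 higher. The lower ones were Ndufv2 (log2FC of -0.70, adjusted p = 0.0121) and Cox6b1 (-0.57, adjusted p = 0.0431), of which Cox6b1 lost its call in 7 of the 8 fits without a mouse, with total counts only (0.109) and under a minimum of 10 counts per mouse (0.0723). With the muscle-rich mice removed neither was called (adjusted p = 0.111 and 0.202). Cidea and Plin1, lipid droplet proteins of adipocytes, had log2FC of -1.16 and -0.91 (adjusted p = 0.00211 and 0.0113 by edgeR). Adipoq, the hormone adiponectin, had one of -0.82 (adjusted p = 0.00606) and Elovl3, a fatty acid elongase of brown fat, one of -1.96 (adjusted p = 0.00803). Dio2, the deiodinase that activates thyroid hormone in brown fat, was higher (1.45, adjusted p = 0.0231; 0.0698 without WT replicate 1, 0.0864 without Ucp1Δ/Δ replicate 3 and 0.0993 with the muscle-rich mice removed). The oxidation genes summed to 4672, 5298, 5253 and 4294 CPM in the WT mice (replicates 1 to 4). Ucp1Δ/Δ replicates 1 to 4 had sums of 3564, 3077, 3631 and 3535 CPM, without overlap. The largest terms were Hadha, Acadm and Acadvl (WT means 1408, 1192 and 1140 CPM), none of them called. Paralogues and flux partners did not overlap either (3064 to 4578 CPM in WT, 2071 to 2766 CPM in Ucp1Δ/Δ mice). The summed brown adipocyte markers overlapped between Ucp1Δ/Δ replicate 1 and WT replicate 4. Other oxidation genes, other PPAR targets and respiratory chain genes overlapped too. The median log2FC of oxidation genes and brown adipocyte markers were close, at -0.52 and -0.46. How far the share of adipocytes in the tissue moved the oxidation genes was not tested. Endothelial markers had 1 higher of 7 tested, close to the 13.3% of all tested genes. Their summed levels were 212 to 243 CPM in WT and 254 to 313 CPM in Ucp1Δ/Δ mice.

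**Figure D5:**
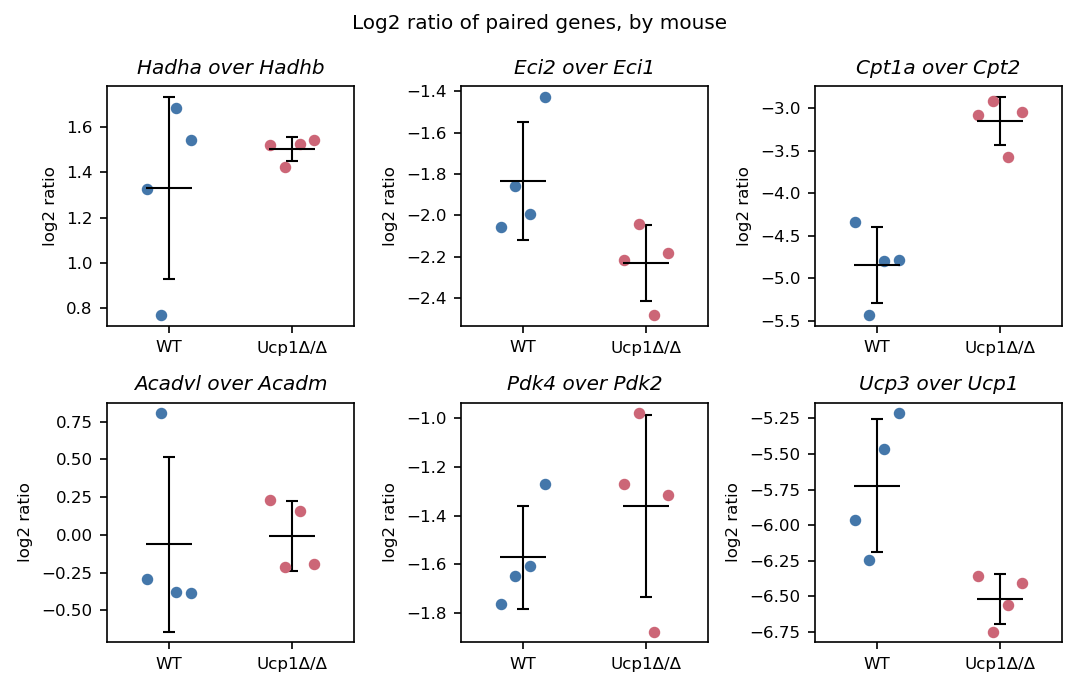
Log2 ratio of paired genes in each mouse, with mean ± SD; points are mice, and the axes do not start at 0. The ratio of Cpt1a to Cpt2 is higher in all Ucp1Δ/Δ mice than in all WT mice, and that of Ucp3 to Ucp1 lower.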

How the data were processed

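RNA of brown adipose tissue from 4 WT and 4 Ucp1Δ/Δ male mice was sequenced. The material was taken here as whole tissue, although the labels name the stromal vascular fraction, and the marker counts do not settle which it was. The methods name bbduk, STAR, HTSeq-count and mm10, whereas the submitters' processing notes name Trimmomatic, HISAT2 and DESeq2, so which made the table is not known. Strand setting and annotation release are not given in the sources used here. The study elsewhere gives another age than the labels and names fasting before harvest. The authors deposited raw counts per Ensembl gene, which were used as deposited, and normalised log2 values, which entered 1 alternative. Symbols came from GENCODE and were found for 31011 of 31053 identifiers.

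Counts were filtered by expression (filterByExpr), scaled by TMM and tested with edgeR 4.0.16 (quasi-likelihood, genotype only, R 4.3.3), with Benjamini-Hochberg adjustment over 8930 genes. Standard errors came from the log2FC and its F, and log2 CPM used a prior count of 2. The 95% intervals used 6 residual degrees of freedom, fewer than edgeR's test, so they are wider than its p-values imply. For Cpt2 the interval includes 0 at an unadjusted p of 0.0303 by edgeR. Ratios were tested by two-sided exact permutation. Alternatives were other scalings and filters, removal of mitochondrially encoded genes, DESeq2 1.42.0, limma 3.58.1, a replicate block and leaving out each mouse. The fits were tested on simulated data. Mice of 1 group differed beyond sampling noise (chi-square per degree of freedom 4.69 to 23.2), so none was counted as a duplicate. The genes and lists were chosen with earlier results of these data known. Named were every oxidation gene, the PPAR genes and close partners, up to 4 called genes per list and direction by adjusted p (not given for macrophage, stromal and endothelial markers), and the 5 genes most like the mean. A few genes that this rule names are not reported here.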

Additional observations from a re-analysis of the deposited data

Results flagged for a closer look

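Among 108 groups of 4 mice looked at, 5 held 1 mouse apart from the others by Dixon's gap-to-range criterion at the 95% level, which flags about 1 in 20 groups by chance (5.4 here). None was an oxidation gene of the list. The gap took 0.913 of the range for Ppard in WT replicate 3, which was low, 0.903 for the endothelial gene Tie1 in Ucp1Δ/Δ replicate 3, which was high, and 0.902 for Pdk3 in WT replicate 1, which had 5 counts. It took 1 for Cpt1b in Ucp1Δ/Δ replicate 3 and for Fgf21 in WT replicate 4, where 2 counts and 1 count stood against mice at 0.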

How the results depend on the processing

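Cpt1a and Eci2 kept their call in every alternative run, and 31 of the 50 named genes kept direction and side of the threshold in each. Lower oxidation genes numbered 6 with DESeq2's Wald test (785 of all 12312 genes were lower there), 5 with limma voom (822 of 8930), limma on the deposited log2 values (735 of 8930) or a minimum of 1 count in any mouse (883 of 16617), 1 with the muscle-rich mice removed (chosen after seeing the data), and 1 to 6 without 1 mouse. Genes lower overall numbered 404 with total counts only (1478 higher, against 681 and 1191 in the main test), 449 with 10 counts in every mouse (746 higher), 279 with the muscle-rich mice removed, and 400 to 851 without 1 mouse (945 to 1304 higher). Total counts only moved the median log2FC of all genes to 0.13. Other mitochondrial oxidation genes lower numbered 3 with total counts only, 8 with the Wald test, 2 with the muscle-rich mice removed and 2 to 9 without 1 mouse. Other PPAR targets higher numbered 5 with total counts only, 4 with voom and 2 to 4 without 1 mouse. Receptors and coregulators higher numbered 4 with voom, 1 with a minimum of 1 count, 1 with the muscle-rich mice removed and 1 to 3 without 1 mouse, and 1 was lower with the muscle-rich mice removed. Partners lower numbered 3 with the muscle-rich mice removed and 3 to 8 without 1 mouse. Respiratory chain genes lower numbered 1 with total counts only or 10 counts in every mouse, 7 with the Wald test, 4 with voom, 6 with a minimum of 1 count, 0 with the muscle-rich mice removed and 1 to 10 without 1 mouse. Without 1 mouse the log2 ratio difference ran from -0.015 to 0.29 for Hadha over Hadhb and from -0.051 to 0.34 for Acadvl over Acadm (-0.021 without WT replicate 1, -0.049 without WT replicate 3, -0.051 without WT replicate 4 and -0.022 without Ucp1Δ/Δ replicate 1). Without 1 mouse the log2FC of Pdk4 ran from -0.015 (without Ucp1Δ/Δ replicate 1; -0.012 without WT replicate 2) to 0.16, and that of Pdk2 from -0.21 to 0.019 (without Ucp1Δ/Δ replicate 2). Pdk2 turned to 0.0059 with total counts only and to 0.11 with the muscle-rich mice removed. The cause of these changes was not tested.

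For mice with equal numbers, the correlations of their deviations were -0.09, -0.20, 0.30 and 0.24 (mean 0.07). Whether equal numbers stand for a shared litter, cage or batch is not given in the sources used here and was not tested. With a replicate block 581 genes were lower and 1138 higher, 2 oxidation genes were lower, and the log2FC of Hadhb was -0.63 (adjusted p = 0.0522 from edgeR). Depth limits Cpt1a, with 12 counts in its lowest mouse. Cpt1b, Eci3, Pdk3 and Fgf21 fell below the count filter and were not tested, and for Cpt1b and Eci3 the counting of shared reads was not tested.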
